A study of Mus musculus with 8 samples.

Results

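The genes described here are 9 mouse genes of blood clotting and clot removal, measured on 8 one-colour microarrays. They are Fga, Fgb and Fgg, which encode the Aα, Bβ and γ chains of fibrinogen, F13a1 (the catalytic subunit of coagulation factor XIII), F3 (tissue factor), Thbd (thrombomodulin), Plat (tissue plasminogen activator, tPA), Plau (urokinase, uPA) and Plaur (the urokinase receptor, uPAR). They were chosen by name with earlier results of these data known, so counts of them set against all genes are not independent support. Their probes were found by matching the RefSeq accession of each probe to these symbols. This gave 12 of the 56605 probes and 9 of the 22911 named genes on the array. Fga, F13a1 and Plau have 2 probes each, and the other 6 genes have 1.

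Each of 8 groups was represented by 1 array. The 4 tissue arrays held RNA of brain slice 3 from the ischemic side of DEREG mice after stroke (DEREG ischemia), wild type mice after stroke (WT ischemia), DEREG mice after sham surgery (DEREG sham) and wild type mice after sham surgery (WT sham), all at day 14. DEREG mice carry a transgene that places the diphtheria toxin receptor under control of Foxp3, the transcription factor of regulatory T cells (Treg), so that toxin removes Treg. Neither a toxin treatment nor the age of the mice is given by the labels. The 4 T cell arrays held RNA of Treg and of the other CD4+ T cells (nonTreg). Both came from wild type ischemic brain at day 14 and from spleens of untreated mice, with no statement on the method of separation or on pooling of mice.

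Fibrinogen is a plasma protein that hepatocytes make, more of it in an acute-phase response, and thrombin turns it into fibrin, which factor XIII crosslinks. Tissue factor starts clotting, and thrombomodulin on endothelium binds thrombin so that it activates the anticoagulant protein C instead. tPA and uPA convert plasminogen to plasmin, which dissolves fibrin, and uPAR holds uPA on the cell surface. In brain, astrocytes are a known source of tissue factor and neurons, microglia and vessels of tPA, and fibrinogen of the blood enters the tissue where the blood-brain barrier leaks.

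The 3 fibrinogen genes are neighbours within 42.14 kb of chromosome 3 (assembly GRCm38.p6 in all coordinates): Fgg at chr3:83007724-83015056, Fga at chr3:83026153-83033627 and Fgb, on the minus strand, at chr3:83042246-83049863. The remaining genes are F3 at chr3:121723537-121735052, F13a1 at chr13:36867178-37050244, Plat at chr8:22757722-22782848, Plau at chr14:20836662-20843388, Plaur at chr7:24460937-24475970 and Thbd at chr2:148404471-148408188. RefSeq promoter entries were matched for 6 of the 9 genes (Fga, Fgb, Fgg, F3, F13a1 and Plaur). The 250 bases before the start are shown 5′ to 3′ for the 3 fibrinogen genes, which are coexpressed in liver but gave unequal signals here, and for Plaur, whose signal varied most over the tissue arrays among the genes measured on all of them. They lie at chr3:83025903-83026152 (plus strand), chr3:83049864-83050113 (minus strand), chr3:83007474-83007723 (plus strand) and chr7:24462233-24462482 (plus strand). The Plaur window precedes a start that lies inside the span listed for the gene. Capitals mark matches on either strand to CTGGGAA (the core of the interleukin-6 response element known from rat and human fibrinogen genes), TTGCNNAA (C/EBP), GTTAAT (the core of the HNF1 site), TGANTCA (AP-1) and GGGCGG (GC box).
Fga: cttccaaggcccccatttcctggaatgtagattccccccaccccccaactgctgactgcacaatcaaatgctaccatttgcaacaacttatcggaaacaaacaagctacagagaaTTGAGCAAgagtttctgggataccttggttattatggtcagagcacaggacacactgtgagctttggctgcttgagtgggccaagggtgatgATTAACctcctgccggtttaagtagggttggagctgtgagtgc
Fgb: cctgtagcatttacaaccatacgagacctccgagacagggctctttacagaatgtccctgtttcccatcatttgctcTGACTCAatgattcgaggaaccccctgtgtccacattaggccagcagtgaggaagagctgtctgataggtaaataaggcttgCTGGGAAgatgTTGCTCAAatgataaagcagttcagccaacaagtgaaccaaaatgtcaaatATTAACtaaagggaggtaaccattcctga
Fgg: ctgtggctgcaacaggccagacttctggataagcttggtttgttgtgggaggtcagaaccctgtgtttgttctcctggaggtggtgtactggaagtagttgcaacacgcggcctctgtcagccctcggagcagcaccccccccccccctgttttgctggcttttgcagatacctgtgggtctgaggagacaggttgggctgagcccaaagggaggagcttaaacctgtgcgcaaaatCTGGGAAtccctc
Plaur: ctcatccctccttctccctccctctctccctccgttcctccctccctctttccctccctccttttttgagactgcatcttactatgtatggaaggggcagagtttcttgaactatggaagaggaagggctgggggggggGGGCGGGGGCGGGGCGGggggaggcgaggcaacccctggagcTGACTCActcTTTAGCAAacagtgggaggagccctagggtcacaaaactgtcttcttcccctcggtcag

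The Fgb window held CTGGGAA 91 to 85 bases before the start, a C/EBP match (TTGCTCAA) at 80 to 73, an HNF1 core (ATTAAC) at 29 to 24 and an AP-1 match at 173 to 167. The Fga window held an HNF1 core at 43 to 38 and a C/EBP match (TTGAGCAA) at 135 to 128 but no CTGGGAA. In the Fgg window the only match was CTGGGAA at 13 to 7. Plaur had 3 GC boxes between 111 and 95, the last pair sharing a base, an AP-1 match at 69 to 63 and a C/EBP match (TTTAGCAA) at 59 to 52. The F3 window, not printed, held 2 AP-1 matches and 3 GC boxes, and the F13a1 windows held none of the motifs searched. The STAT motif (TTCNNNGAA), not in capitals, matched once in Fgb and once in Fga, and the NF-kB motif, the CRE motif (TGACGTCA) and the motif TATAAA matched in none of the windows of these genes. Over the 32851 promoter windows of the same length, the interleukin-6 core was found in 9.1%, C/EBP in 9.56%, the HNF1 core in 6.43%, AP-1 in 6.75%, the GC box in 32.7%, STAT in 7.02%, NF-kB in 1.41%, CRE in 1.55% and TATAAA in 12.4%. Each match describes letters of the window and is not evidence that a factor binds there.

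Values are scaled intensities, the background-subtracted brightness of a probe divided by the 75th percentile of its array, so that 1 is a probe at that percentile. A probe below the scanner software's threshold is called not well above background, and a difference against it is a lower bound, written as at least. Such a bound sets the bright value against the lowest value well above background on the dim array, or against the dim value itself where that was higher. On the tissue arrays 62.0% to 65.1% of probes passed that threshold, and on those of T cells 47.6% to 51.9%. No spot was saturated and no spot of the 9 genes carried an outlier flag. With 1 array per group, no difference has a replicate check and none was tested, and counts of genes at 2-fold describe these arrays. Replicate spots on an array give the technical error only, and at signals of 100 or more a difference between a pair of single spots has an SD of up to 0.06 (log2) by the median over such probes. Single spots under 100, where only 1 to 10 such probes lie, had an SD of 0.105 to 0.217 (log2), and many values of the 9 genes are in that range. Among those well above background they are the signals of Fgb in WT ischemia (79.9) and Fgg in DEREG ischemia (21.3), of Plaur (79.4 and 47.4) and Plau (51.5 and 55.2) in DEREG sham and WT sham, and of the second probes of F13a1 and Plau on tissue. On the T cell arrays they are those of Plaur in spleen Treg (13.5) and spleen nonTreg (61.2), F13a1 in brain nonTreg (79.5) and spleen Treg (39.96), F3 in both brain samples, and Plau (60.8) and Plat (24.7) in brain nonTreg.

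The labels were checked against marker genes. Foxp3 stood at 4.25 in brain Treg and 0.803 in brain nonTreg, and at 8.60 in spleen Treg, while it was not well above background in spleen nonTreg. All 9 T cell markers with a probe passed the background threshold on each T cell array, and Foxp3 was not well above background on any tissue array, so the tissue arrays do not check the depletion of Treg. On the tissue arrays all 8 neuron, 7 astrocyte and 6 oligodendrocyte markers were well above background. The WT ischemia array stood apart in choroid plexus genes, a list added after the data had been seen: their scaled intensities summed to 22.1 in DEREG ischemia, 106.5 in WT ischemia, 22.7 in DEREG sham and 23.1 in WT sham. Neuron markers summed to 43.6 in DEREG ischemia and 99.6 in WT ischemia, against 347 in DEREG sham and 371 in WT sham. Neither stroke array can be left out, since each is its whole group.

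After stroke the fibrinogen gene Fgb and the genes of uPA, its receptor, factor XIII and thrombomodulin were far higher than after sham surgery in both genotypes, and those of tissue factor and tPA were about 2-fold to 3-fold higher. In DEREG ischemia against DEREG sham, 8 of the 9 genes were at least 2-fold higher and Fga could not be compared, where 22.4% of 17161 genes compared were higher and 22.1% lower. In WT ischemia against WT sham, 7 of the 9 were higher and Fga and Fgg could not be compared, where 18.8% of 16968 genes were higher and 18.4% lower. The median difference of the genes compared, bounds included, was 3.36 (log2) in DEREG and 2.73 in WT, against -0.06 over all genes in DEREG and -0.14 in WT. Fgb in both comparisons and Fgg in DEREG entered only because the stroke array was well above background, so they had to come out higher, and the other 6 genes were measured on all 4 tissue arrays.

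**Figure D1:**
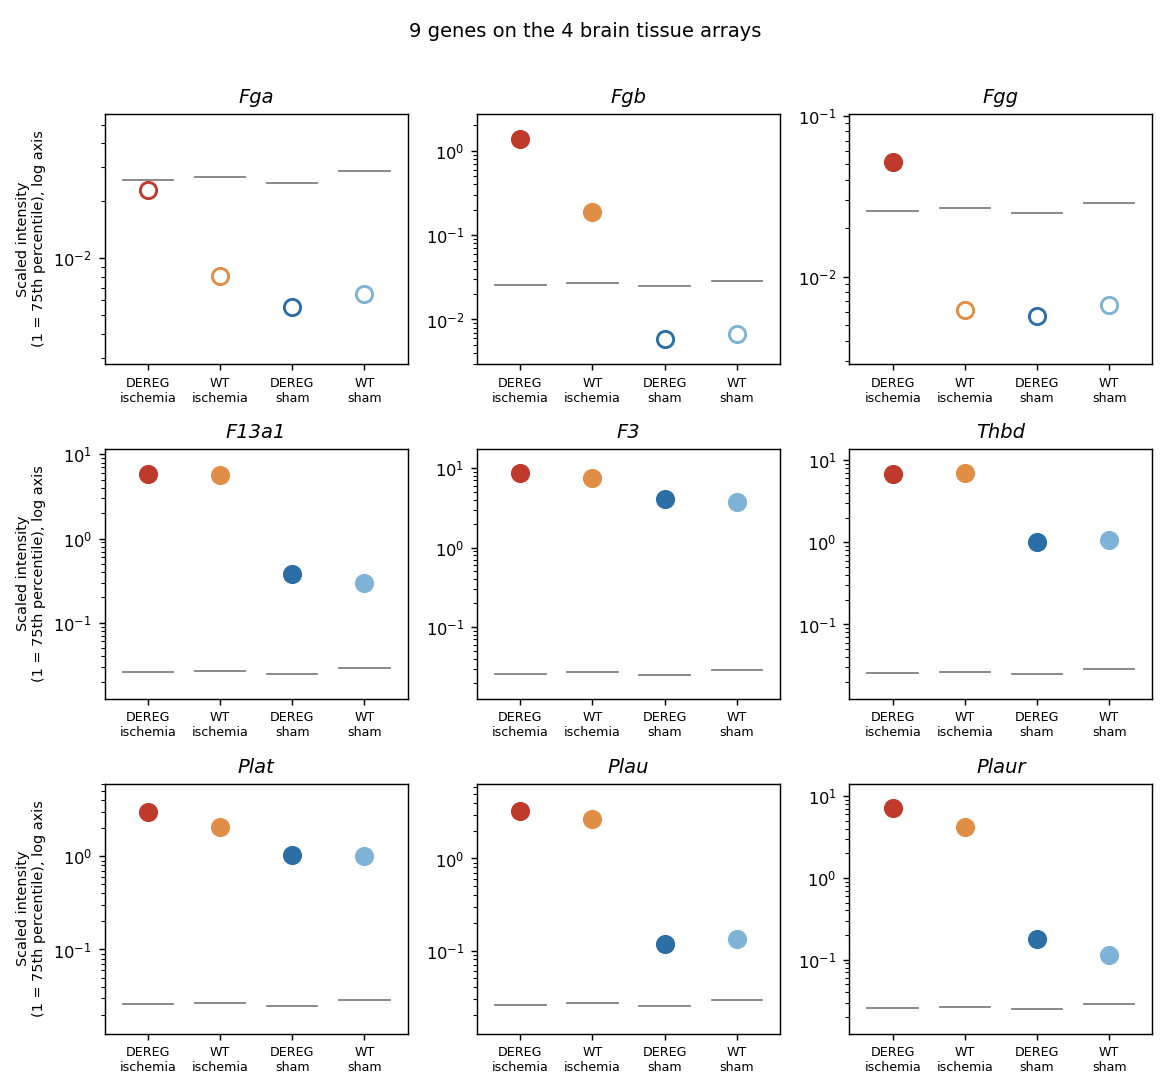
Scaled intensity of the 9 genes on the 4 tissue arrays (1 array per group, y axis logarithmic and scaled per gene). Filled points were well above background, open points were not, and grey bars mark the lowest value well above background on each array. For the 7 genes other than Fga and Fgg both stroke arrays are filled and lie above both sham arrays, and Fgg is filled in DEREG ischemia alone.

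Fgb, the Bβ chain of fibrinogen, had a scaled intensity of 1.37 in DEREG ischemia and 0.190 in WT ischemia, and it was not well above background in DEREG sham (0.0059) or WT sham (0.0067). Both stroke arrays were thus high and both sham arrays dim. The difference from sham was at least 5.78 (log2, 55.1-fold) in DEREG and at least 2.73 (6.64-fold) in WT. Fgg, the γ chain, stood at 0.0514 in DEREG ischemia, against 0.0062 in WT ischemia, 0.0057 in DEREG sham and 0.0067 in WT sham, and only the DEREG ischemia value was well above background. Its difference from sham in DEREG was at least 1.04 (2.06-fold), and it lay under 2-fold with quantile normalization (0.95), the median as scaling point (0.99) or normexp background correction (0.29). Fga, the Aα chain, was not well above background on any of the 8 arrays with either of its 2 probes. The brighter Fga probe on tissue read 0.0228 in DEREG ischemia, close under that array's lowest value well above background of 0.0257, against 0.0081 in WT ischemia, 0.0056 in DEREG sham and 0.0065 in WT sham.

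Since fibrinogen is a liver product, other liver genes were set beside it. Of 7 hepatocyte markers, 4 were well above background in DEREG ischemia and 5 on each of the other tissue arrays. Alb (albumin) and Apoa1 (apolipoprotein A-I), defining genes of hepatocytes, were not well above background on any tissue array. The 7 hepatocyte markers summed to 3.44 in DEREG ischemia and 66.3 in WT ischemia, against 5.94 in DEREG sham and 5.25 in WT sham, and the WT ischemia sum was nearly all Ttr (transthyretin, 63.4), which choroid plexus also makes. Without Ttr the sums were 2.25 in DEREG ischemia and 2.89 in WT ischemia, against 5.12 in DEREG sham and 5.03 in WT sham. Acute-phase genes that other cells also express were high after stroke. Hp (haptoglobin, which binds free haemoglobin) stood at 43.4 in DEREG ischemia and 9.51 in WT ischemia, against 0.119 in DEREG sham and 0.0483 in WT sham. Saa3, a serum amyloid A made outside the liver in mice, stood at 102 in DEREG ischemia and 29.4 in WT ischemia, against 0.0817 in DEREG sham and a value not well above background in WT sham. Of the 11 liver and acute-phase genes listed, which include Alb and Ttr, 9 could be compared. In DEREG 7 were at least 2-fold higher and 0 lower, and in WT 8 were higher and 0 lower. Ttr counted among the higher genes in WT but not in DEREG. Of the listed genes measured on both arrays, 5 of 7 were higher in DEREG and 6 of 6, Ttr included, in WT. Neutrophil markers summed to 70.3 in DEREG ischemia and 21.7 in WT ischemia, against 1.69 in DEREG sham and 0.891 in WT sham. S100a9 gave 53.8 of the DEREG ischemia sum and 16.2 of that in WT ischemia, and the part of neutrophils in the fibrinogen values was not tested.

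**Figure D2:**
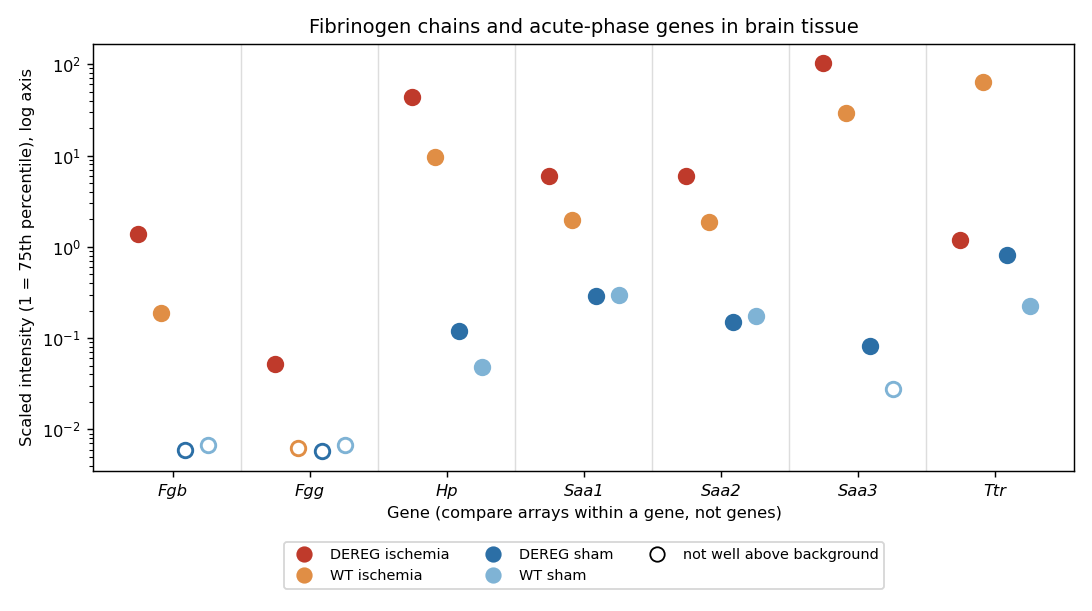
Scaled intensity (logarithmic axis) of 2 fibrinogen chains and 5 genes of the liver and acute-phase list on the 4 tissue arrays. There is 1 point per array, open where not well above background. Saa1 and Saa2 were added after their values were seen. DEREG ischemia is highest for each gene shown except Ttr, where WT ischemia stands at 63.4 and DEREG ischemia at 1.19.

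F13a1, which crosslinks fibrin and is also a gene of tissue macrophages, stood at 5.85 in DEREG ischemia and 5.63 in WT ischemia, against 0.380 in DEREG sham and 0.298 in WT sham. The difference from sham was 3.95 (log2, 15.4-fold) in DEREG and 4.24 (18.9-fold) in WT. Its second probe was well above background on the stroke arrays only, at 0.0326 in DEREG ischemia and 0.0435 in WT ischemia, and gave bounds of at least 1.31-fold in DEREG and 1.52-fold in WT. All 11 macrophage and monocyte markers were higher after stroke in both genotypes, and they summed to 327 in DEREG ischemia and 259 in WT ischemia, against 30.7 in DEREG sham and 23.5 in WT sham. Platelets, which also carry factor XIII, had markers that summed to 5.69 in DEREG ischemia and 6.66 in WT ischemia, against 0.728 in DEREG sham and 0.723 in WT sham, most of it after stroke from Pf4, which is also on the macrophage list. The part of either cell type in the F13a1 difference was not tested, and in these bulk samples a difference in the number of cells of a type and one in RNA per cell cannot be told apart.

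F3, which encodes the receptor that starts clotting, stood at 8.76 in DEREG ischemia and 7.47 in WT ischemia, against 4.03 in DEREG sham and 3.69 in WT sham. Stroke arrays were above sham arrays by 1.12 (log2, 2.18-fold) in DEREG and by 1.01 (2.02-fold) in WT. The 7 astrocyte markers summed to 144 in DEREG ischemia and 125 in WT ischemia, against 81.6 in DEREG sham and 88.8 in WT sham, and 3 of the 7 were at least 2-fold higher in each genotype. Thbd, the thrombin receptor that turns thrombin towards protein C, stood at 6.84 in DEREG ischemia and 6.87 in WT ischemia, against 0.999 in DEREG sham and 1.07 in WT sham. Its difference from sham was 2.78 (6.85-fold) in DEREG and 2.68 (6.43-fold) in WT. Endothelial markers summed to 66.9 in DEREG ischemia and 55.2 in WT ischemia, against 28.4 in DEREG sham and 28.8 in WT sham, and without Vwf to 35.8 in DEREG ischemia and 32.8 in WT ischemia, against 20.8 in DEREG sham and 24.1 in WT sham. Their median difference was 1.32 in DEREG and 0.56 in WT, below that of Thbd, and the part of astrocytes and endothelium in these values was not tested.

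Plat, the tPA gene, stood at 3.02 in DEREG ischemia and 2.08 in WT ischemia, against 1.02 in DEREG sham and 0.996 in WT sham. The difference from sham was 1.56 (log2, 2.95-fold) in DEREG and 1.06 (2.09-fold) in WT. In WT both Plat and F3 were at the edge of 2-fold: with the median as scaling point Plat differed by 0.90 and F3 by 0.85, and with normexp Plat differed by 0.94 and F3 by 0.93. Plau, the other activator, stood at 3.26 in DEREG ischemia and 2.69 in WT ischemia, against 0.117 in DEREG sham and 0.134 in WT sham. Its difference from sham was 4.80 (27.8-fold) in DEREG and 4.33 (20.1-fold) in WT, larger than that of Plat in each genotype. A second Plau probe read 0.0731 in DEREG ischemia and 0.0688 in WT ischemia and was dim after sham surgery, with bounds of at least 2.93-fold in DEREG and 2.40-fold in WT. The neuron markers, which fell by 3.13 (median, log2) in DEREG and by 1.91 in WT, went the other way from Plat. The part of neurons in the Plat values was not tested.

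Plaur, which anchors uPA on leukocytes and other cells, had the largest difference among the 6 genes measured on all 4 tissue arrays, in DEREG and in WT. Fgb, known only as a lower bound, lay above Plaur in DEREG (at least 5.78) and cannot be ranked against it in WT (at least 2.73). Plaur stood at 7.10 in DEREG ischemia and 4.22 in WT ischemia, against 0.181 in DEREG sham and 0.115 in WT sham. The difference from sham was 5.30 (log2, 39.3-fold) in DEREG and 5.19 (36.6-fold) in WT, above 98.6% of genes compared in DEREG and 99.0% in WT. Markers of microglia, which were high together with Plau and Plaur, summed to 657 in DEREG ischemia and 560 in WT ischemia, against 143 in DEREG sham and 162 in WT sham. Markers of meningeal fibroblasts summed to 344 in DEREG ischemia and 279 in WT ischemia, against 8.69 in DEREG sham and 8.06 in WT sham, and the part of these cells in both genes was not tested. Among 15120 genes measured on all 4 tissue arrays, those whose mean-centred profile lay closest to Plaur were H2-Eb1 (an MHC class II chain), Usp18 (a protease of the interferon response), Myo1g (a myosin of blood cells), Casp4 (an inflammatory caspase) and Bcl3 (an inhibitor-like regulator of NF-kB). Their Euclidean distances from it over the 4 arrays ran from 0.155 (log2) for H2-Eb1 to 0.233 for Bcl3, against a range of 5.95 for Plaur itself.

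**Figure D3:**
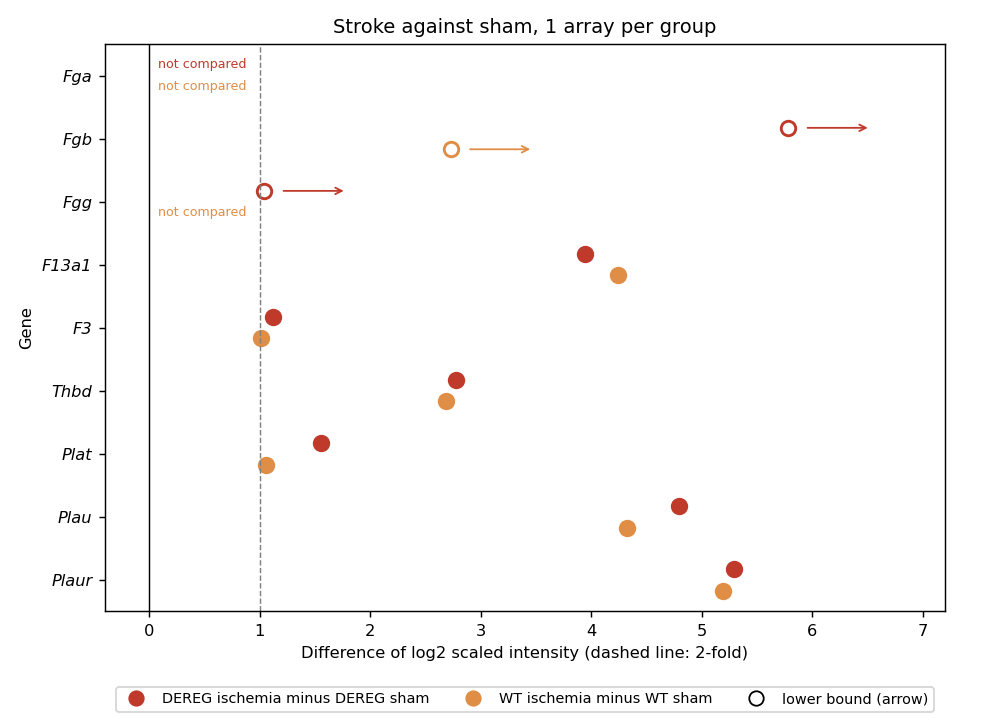
Difference of log2 scaled intensity between stroke and sham for the 9 genes in DEREG and WT, 1 array per group, with lower bounds as open points with arrows and the dashed line at 2-fold. The difference reached 5.30 for Plaur in DEREG and at least 5.78 for Fgb, while F3 and Plat lay between 1.01 and 1.56.

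Between the stroke arrays, Fgb was the gene of the 9 that differed by 2-fold or more. It was 2.85 (log2, 7.23-fold) higher in DEREG ischemia than in WT ischemia, above 99.96% of the 16857 genes compared, of which 2.36% were at least 2-fold higher and 5.37% lower. Fgg was at least 0.94 (1.92-fold) higher, and it passed 2-fold with quantile normalization (1.09) and with the median as scaling point (1.01). Plaur was 0.75 (1.68-fold) and Plat 0.54 (1.45-fold) higher in DEREG ischemia. Plau (0.28), F3 (0.23), F13a1 (0.06) and Thbd (-0.01) differed less, and the second probes of F13a1 and Plau gave -0.41 and 0.09. The 8 genes compared had a median of 0.41, against 0.08 over all genes. Hp (2.19) and Saa3 (1.79, chosen after its value was seen) were higher in DEREG ischemia as well. Of the 9 genes compared from the liver and acute-phase list, 5 were at least 2-fold higher and 1, Ttr (-5.74), lower. Choroid plexus genes (median -2.92, 6 of 8 lower) and neuron markers (median -1.16, 5 of 8 lower) also differed between these arrays, and 4 of 8 neutrophil markers were higher (median 1.15). T cell markers were higher too, 6 of 9 by 2-fold (median 1.35), with sums of 16.3 in DEREG ischemia and 6.41 in WT ischemia. So were 2 of 4 B cell markers compared (median 1.23) and 2 of 4 Treg markers compared (median 1.16). Foxp3 and Ctla4, also on the Treg list, were dim on both arrays. The part of any of these cell types in the Fgb difference was not tested. With 1 array each, genotype and the slice that was taken cannot be told apart.

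Without stroke few genes differed by 2-fold between the genotypes. In DEREG sham against WT sham, none of the 6 genes compared reached 2-fold, where 0.59% of 16273 genes were higher and 0.449% lower, and the 3 fibrinogen genes were not well above background on either array. The largest differences of the 6 were those of Plaur (0.65, log2), above 98.2% of the genes compared, and F13a1 (0.35), above 93.6%. F3 (0.12), Plat (0.04), Thbd (-0.10) and Plau (-0.19) followed. The 6 genes had a median of 0.08, against -0.01 over all genes. Of the acute-phase genes, 3 of 7 compared were at least 2-fold higher in DEREG sham, Ttr (1.88), Hp (1.30) and Saa3 (at least 1.51, chosen after its value was seen). For the 6 genes of clotting and clot removal, the stroke difference in DEREG minus that in WT did not pass 2-fold. It was 0.50 for Plat, 0.47 for Plau, 0.11 for F3, 0.10 for Plaur, 0.09 for Thbd and -0.30 for F13a1. Of 15120 genes measured on all 4 arrays, 0.906% lay above and 5.21% below by at least 2-fold. Fgb and Fgg have no such value, since their sham arrays were not well above background.

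The other genes of clotting and clot removal were read from lists that were chosen with earlier results of these data known. Of 16 coagulation factors and their helpers, 13 were compared and 8 were higher and 1 lower by 2-fold in each genotype, with medians of 1.96 (log2) in DEREG and 1.67 in WT, bounds included. A gene dim after sham surgery entered only through its stroke array and had to come out higher. Of the 7 coagulation factors measured on both arrays, 3 were higher and 0 lower in DEREG (median 0.80), and 2 were higher and 1 lower in WT (median 0.35). F10 (factor X) stood at 5.002 in DEREG ischemia and 1.51 in WT ischemia and was dim on both sham arrays, at least 7.65 higher in DEREG and 5.72 in WT. Kng1 (kininogen, the precursor of bradykinin) stood at 4.64 in DEREG ischemia and 1.94 in WT ischemia and was also dim after sham surgery, at least 7.54 higher in DEREG and 6.08 in WT. These were the genes of the list that differed by 2-fold between the stroke arrays, F10 by 1.73 and Kng1 by 1.26, both higher in DEREG ischemia. F7, the partner of tissue factor, was at least 4.36 higher in DEREG and 3.23 in WT, and Vwf (von Willebrand factor, which tethers platelets) was 2.04 higher in DEREG and 2.27 in WT. F12, which starts the contact pathway, was at least 7.29-fold lower in DEREG and 4.66-fold lower in WT.

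Of 12 anticoagulant genes, 8 of 9 compared were higher in DEREG and 7 of 7 in WT, with none lower. The medians were 2.57 (log2) in DEREG, bounds included, and 2.42 in WT. The 7 measured on both arrays were all higher in each genotype, with medians of 3.07 in DEREG and 2.42 in WT. Procr, the endothelial receptor of protein C and thus a partner of Thbd, stood at 1.45 in DEREG ischemia and 0.823 in WT ischemia, against 0.0601 in DEREG sham and 0.0561 in WT sham. Its difference was 4.60 in DEREG and 3.88 in WT. Pros1 (protein S, the cofactor of activated protein C) was 3.73 higher in DEREG and 3.09 in WT. Of 12 regulators of fibrinolysis, 8 were higher and 1 lower in each genotype, among 11 compared in DEREG and 10 in WT. With bounds included, the medians were 1.94 in DEREG and 2.27 in WT. Of those measured on both arrays, 8 of 10 were higher and 1 lower in DEREG (median 2.72). In WT, 6 of 8 were higher and 1 lower (median 1.29), so the order of the medians depends on the bounds. Serping1 (C1 inhibitor) was 5.19 higher in DEREG and 4.67 in WT, and A2m (a broad protease inhibitor of plasma) was 5.92 higher in DEREG and at least 5.47 in WT. Anxa2, which binds plasminogen and tPA on cell surfaces, was 4.23 higher in DEREG and 4.05 in WT.

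Serpini1 (neuroserpin, the tPA inhibitor of neurons) stood at 1.61 in DEREG ischemia and 3.82 in WT ischemia, against 20.8 in DEREG sham and 19.8 in WT sham. Its difference was -3.69 (log2) in DEREG and -2.38 in WT, and it was 2.37-fold lower in DEREG ischemia than in WT ischemia, alongside the neuron markers, whose part was not tested. The stroke values of Serpini1 were singled out after they were seen. Of 12 receptors of fibrin and uPAR, 10 were higher in each genotype and 1 was lower in DEREG. With bounds included, the medians were 2.53 in DEREG and 2.04 in WT. Of the 10 measured on both arrays, 8 were higher in each genotype, with medians of 2.40 in DEREG and 1.79 in WT. Itgax, a chain of a leukocyte integrin that binds fibrinogen, was 6.78 higher in DEREG and 6.47 in WT, and its partner Itgb2 was 5.46 higher in DEREG and 5.14 in WT. Itgam, the brightest gene of that list on tissue, went the other way and was the 1 lower in DEREG. Its values were 18.6 in DEREG ischemia and 23.2 in WT ischemia, against 41.2 in DEREG sham and 45.8 in WT sham. Of 4 thrombin receptors, 2 were compared: F2r (PAR1) was 1.98 higher in DEREG and 1.76 in WT, and F2rl2 (PAR3) differed by -0.73 in DEREG and -1.28 in WT.

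**Figure D4:**
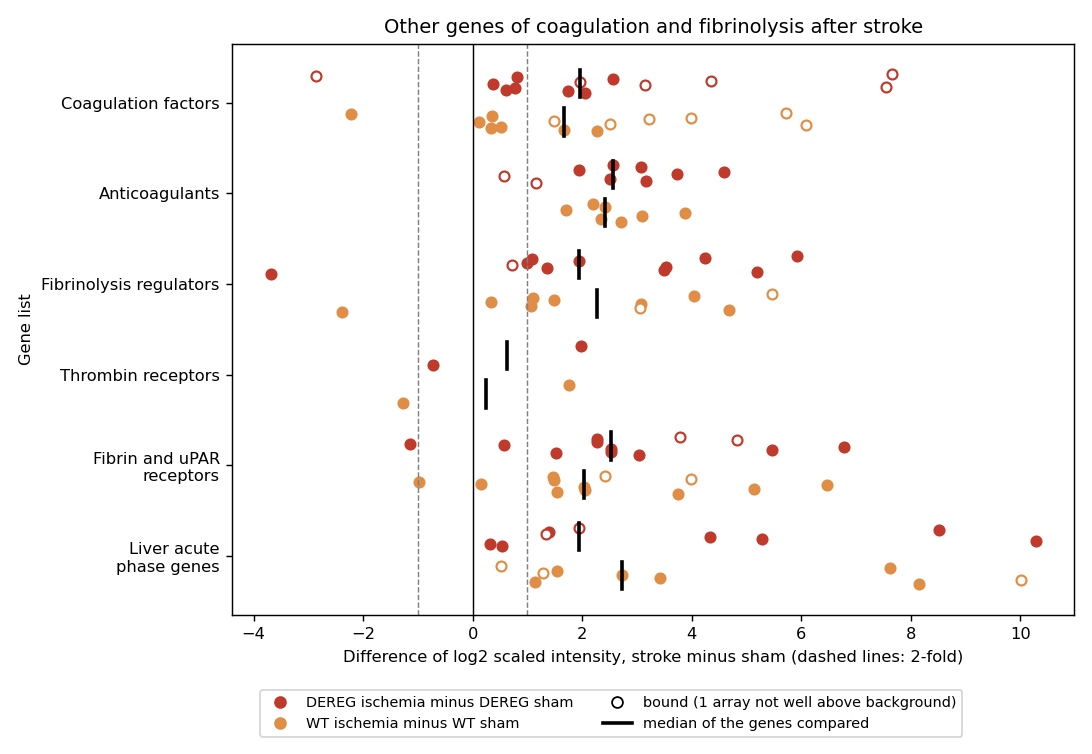
Difference of log2 scaled intensity between stroke and sham for the genes of 6 lists in DEREG (upper row of each list) and WT (lower row), 1 point per gene, open for bounds, black bar for the median, dashed lines at 2-fold. Most points lie right of 2-fold in each list except the thrombin receptors, where F2r is above and F2rl2 below 0.

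On the T cell arrays the 3 fibrinogen genes were not well above background, and F13a1, Plau, Plaur and Thbd were higher in brain than in spleen in both cell types. F3 and Plat were close to the background threshold where they passed it. Each brain array followed ischemia and neither spleen array did, so organ and stroke cannot be told apart in any brain difference given here. In brain Treg against spleen Treg, 5 of the 9 genes were at least 2-fold higher, where 17.2% of 13779 genes were higher and 11.7% lower, and 4 could not be compared. In brain nonTreg against spleen nonTreg, 4 were higher and 2 under 2-fold, where 17.8% of 13404 genes were higher and 12.1% lower. Most of these calls were bounds: F3, Plau and Thbd in Treg and F13a1, Plau and Thbd in nonTreg entered through the brain array alone, and only 2 calls in Treg and 1 in nonTreg were measured on both arrays. With bounds included, the genes compared had a median of 3.19 (log2) in Treg and 2.32 in nonTreg, against 0.03 over all genes in Treg and 0.01 in nonTreg. Immediate early genes, which respond within a short time to stimulation and to tissue handling, were higher on the same brain arrays. Of 10, 9 were at least 2-fold higher and 1 lower in Treg, with a median of 3.13, bounds included. In nonTreg 9 were higher and 0 lower, with a median of 3.62, bounds included. Their scaled intensities summed to 175 in brain Treg and 195 in brain nonTreg, against 27.9 in spleen Treg and 24.7 in spleen nonTreg, and their part in the brain values of the 9 genes was not tested. The scaling percentile here used only probes that passed the threshold on all 4 arrays, so levels are not comparable with those of tissue.

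**Figure D5:**
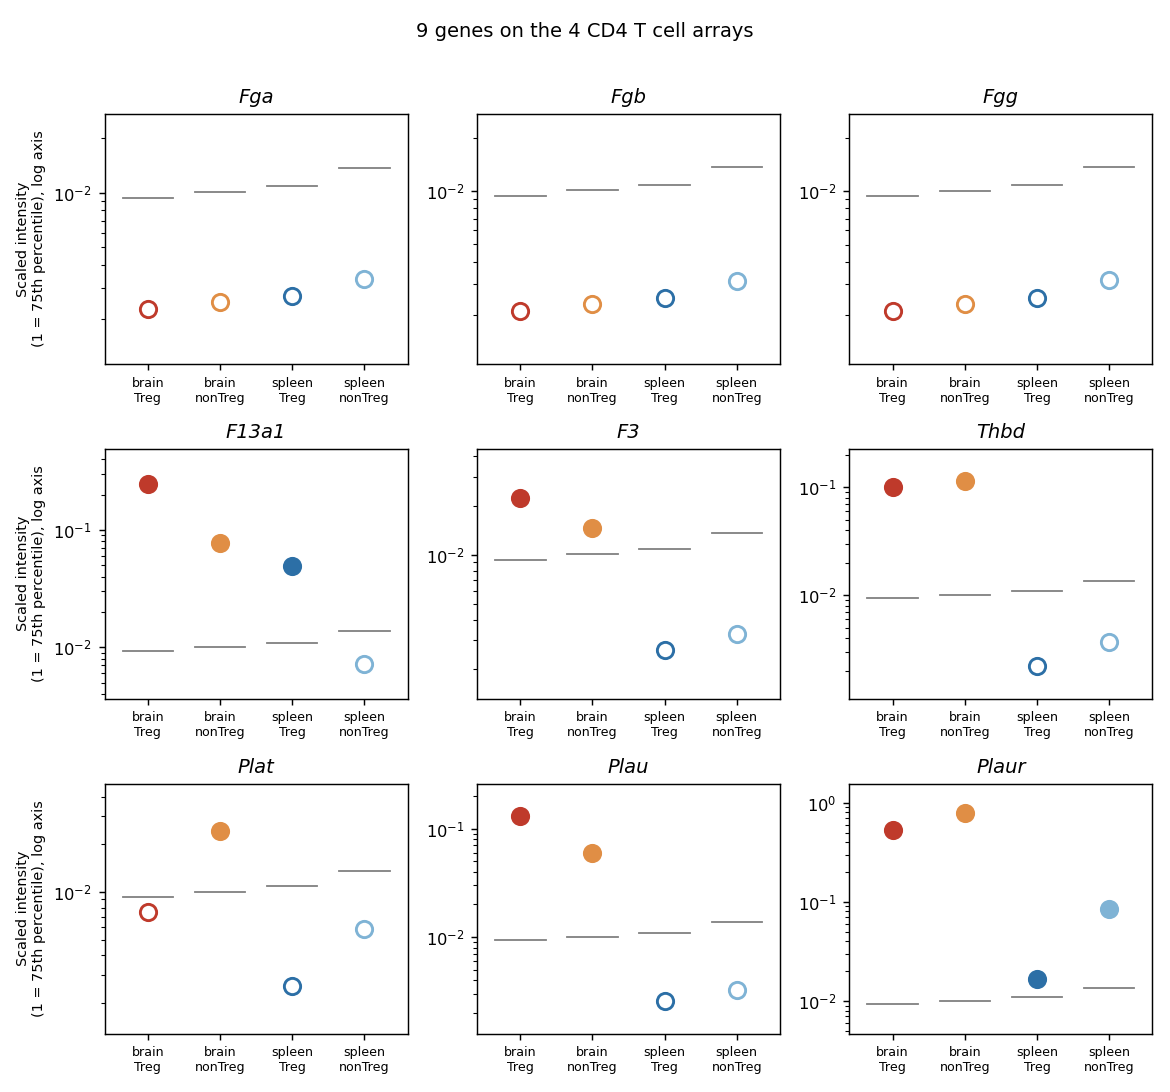
Scaled intensity of the 9 genes on the 4 T cell arrays (1 array per group, y axis logarithmic and scaled per gene), with open points not well above background and grey bars at the lowest value well above background on each array. Plaur is filled on all 4 arrays, at 0.532 and 0.780 in brain and 0.0166 and 0.0846 in spleen.

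Plaur was the gene of the 9 that was well above background on all 4 T cell arrays. It stood at 0.532 in brain Treg and 0.780 in brain nonTreg, against 0.0166 in spleen Treg and 0.0846 in spleen nonTreg. Brain exceeded spleen by 5.003 (log2, 32.1-fold) in Treg and by 3.21 (9.23-fold) in nonTreg. Treg differed from nonTreg by -0.55 in brain and by -2.35 (5.10-fold lower) in spleen. The excess of the brain difference in Treg over the one in nonTreg was 1.80, and 2.3% of 11301 genes measured on all 4 arrays lay above and 3.79% below by at least 2-fold. The spleen Treg (13.5) and spleen nonTreg (61.2) signals that enter this excess were both under 100. With normexp background correction, which adds an offset to each spot, the excess was 0.34. The 5 genes of nearest profile over these arrays were Sytl3 (a synaptotagmin-like protein), Ramp3 (a partner of calcitonin-family receptors), Cxcr6 and Ccl5 (a chemokine receptor and a chemokine) and Lair1 (an inhibitory receptor for collagen). Their distances ran from 0.425 (log2) for Sytl3 to 0.602 for Lair1, against a range of 5.56 for Plaur.

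F13a1 stood at 0.247 in brain Treg, 0.0778 in brain nonTreg and 0.0490 in spleen Treg, and was not well above background in spleen nonTreg (0.0073). It was 2.33 (log2, 5.04-fold) higher in brain Treg than in spleen Treg and at least 2.51 (5.70-fold) higher in brain nonTreg than in spleen nonTreg. The nonTreg bound lay under 2-fold with normexp (0.58) and with the median over its probes (0.49), since the second probe was dim on all 4 arrays. Plau stood at 0.130 in brain Treg and 0.0596 in brain nonTreg and was dim in spleen Treg (0.0026) and spleen nonTreg (0.0032). Brain exceeded spleen by at least 3.58 (11.9-fold) in Treg and at least 2.12 (4.36-fold) in nonTreg, the second of these 0.43 with normexp. The other Plau probe was dim on all 4 arrays. Thbd stood at 0.0993 in brain Treg and 0.113 in brain nonTreg, and was dim in spleen Treg (0.0022) and spleen nonTreg (0.0037), so that brain exceeded spleen by at least 3.19 (9.12-fold) in Treg and 3.05 (8.31-fold) in nonTreg. F3 was low throughout, at 0.0223 in brain Treg and 0.0146 in brain nonTreg and dim in both spleen samples, with bounds of at least 1.04 (2.05-fold) in Treg and 0.10 in nonTreg. Plat was well above background in brain nonTreg alone (0.0242), at least 0.82 (1.77-fold) above spleen nonTreg.

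Within the brain, Treg were at least 2-fold higher than nonTreg in F13a1 (1.66, log2, 3.17-fold) and Plau (1.13, 2.18-fold) and lower in Plat (at least 2.58-fold), where 4.63% of 13756 genes were higher and 2.86% lower. F3 (0.61), Thbd (-0.19) and Plaur (-0.55) lay under 2-fold, and the 6 genes compared had a median of 0.21, against 0.01 over all genes. With normexp, Plau differed by 0.66 and Plat by -0.48. Foxp3 itself was 2.40 (5.29-fold) higher in brain Treg, with a clear signal also in brain nonTreg. In spleen, 2 of the 9 genes were compared: F13a1 was at least 1.84 (3.59-fold) higher in Treg and Plaur was lower, where 5.38% of 12546 genes were higher and 3.24% lower. Normexp put both under 2-fold, F13a1 at 0.40 and Plaur at -0.85, and the median of the pair was -0.25, against -0.01 over all genes.

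Markers of other cells were present on the brain T cell arrays. Macrophage and monocyte markers summed to 37.5 in brain Treg and 62.5 in brain nonTreg, against 16.1 in spleen Treg and 21.6 in spleen nonTreg, and 9 and 8 of the 11 were well above background in brain against 2 in each spleen sample. Ly6c2, which T cells can also express, gave most of each sum, and without it the sums were 5.40 in brain Treg and 2.57 in brain nonTreg, against 0.201 in spleen Treg and 0.173 in spleen nonTreg. Adgre1, Ms4a7 and Mrc1 were not well above background in spleen, and Cd163 and Msr1 on none of the 4 arrays. Microglia markers summed to 50.8 in brain Treg and 28.8 in brain nonTreg, against 28.2 in spleen Treg and 27.9 in spleen nonTreg. Siglech gave most of the spleen sums, and without it they were 38.2 in brain Treg and 15.3 in brain nonTreg, against 1.46 in spleen Treg and 1.54 in spleen nonTreg. Tmem119, dim in spleen, stood at 1.68 in brain Treg and 0.530 in brain nonTreg. Endothelial markers summed to 3.09 in brain Treg and 5.01 in brain nonTreg, against 0.174 in spleen Treg and 0.221 in spleen nonTreg. Plau and F13a1 were higher in brain Treg with the microglia sum and with 5 of 9 macrophage markers compared, and Plat in brain nonTreg with the endothelial sum, and the part of these cells in the brain values of F13a1, Plau, Plaur, Thbd and F3 was not tested.

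In the same comparisons other genes of the pathway were measured. Serpine2 (protease nexin 1, an inhibitor of thrombin and uPA) was 5.39 (log2) higher in brain than in spleen in Treg and 4.64 in nonTreg, and Anxa2 was 3.11 higher in Treg and 2.99 in nonTreg. Of 12 regulators of fibrinolysis, 8 were compared, with 5 higher and 1 lower in Treg and 4 higher and 1 lower in nonTreg. Of the higher ones, 3 in Treg and 2 in nonTreg were measured on both arrays. Of 12 receptors of fibrin and uPAR, 9 were compared, and 7 were higher in Treg (5 measured on both arrays) and 4 in nonTreg (1 measured on both), among them Itgb1 (integrin β1), 1.90 higher in Treg and 2.49 in nonTreg. Vwf, a gene of endothelium and platelets, stood at 1.37 in brain Treg and 2.25 in brain nonTreg and was dim in spleen, at least 6.98 higher in Treg and 7.36 in nonTreg. Of 16 coagulation factors, 2 of 6 compared were higher in Treg, and 1 was higher and 1 lower of 7 in nonTreg, each of these calls a bound. Of 12 anticoagulants, 7 were compared, with 2 higher in Treg (1 measured on both arrays) and 5 in nonTreg (3 measured on both).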

How the data were processed

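RNA of 4 brain tissue samples and 4 CD4+ T cell samples was hybridised to 8 one-colour (Cy3) Agilent SurePrint G3 Mouse arrays of 1 slide with 1 scan time, so no batch could be split. The submitters' processing notes name Feature Extraction, version 10.7.1.1, as the image software. Per the file headers, the intensity taken from the deposited files had its background and spatial trend removed by that software and was not yet scaled across arrays. The signal in the series table, also deposited, equals that intensity divided by 1 constant per array, within 0.1%, for 99.89% to 99.97% of probes. The constant lay near the 75th percentile of all probes, column medians ran from 0.0681 to 0.123, and the table was used as an alternative.

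Spots of a probe were averaged, each probe was named through its RefSeq accession (32994 of 56605 matched a gene of GRCm38.p6, 23611 did not), and signals were divided by the array's 75th percentile, over all probes for tissue and, for T cells, over those that passed the background threshold on each of the 4 arrays. For a gene with several probes, the one of highest mean signal in that set of 4 arrays was read, and a gene was compared where at least 1 array was well above background. Differences are of log2 scaled intensity, called at 2-fold, and no test was run with 1 array per group. Differences of differences used genes well above background on all 4 arrays. The counting was tested on simulated arrays, with changes placed only in probes well above background on all 4 arrays, so bounds were not covered. The simulated noise was also below the SD of spots with signals under 100.

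All 9 genes are named with all values. From the other lists, the 2 largest measured differences per list and comparison and bounds of 4-fold or more could be named, and a gene so named is given in other comparisons too. Genes nearest to Plaur were the 5 with the smallest Euclidean distance between mean-centred log2 profiles. The 9 genes and the lists were chosen with earlier results of these data known.

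Alternatives were normexp (limma 3.58.1 in R 4.3.3, offset 50, on median spot and background signals, since the mean signal named in the plan was not used here), quantile normalization, another probe set behind the percentile, the median as scaling point, genes measured on both arrays only, dim probes kept without a bound, the median of each gene's probes, and the series table. Other steps used Python 3.11.15 with numpy 2.4.6 and pandas 2.3.3. Probe sequences were not used here.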

Additional observations from a re-analysis of the deposited data

Results flagged for a closer look

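Plau, the urokinase gene, had differences of opposite sign between the genotypes after stroke and after sham surgery. It differed by 0.28 (log2) in DEREG ischemia against WT ischemia, with scaled intensities of 3.26 and 2.69, and by -0.19 in DEREG sham against WT sham, with 0.117 and 0.134. Each difference comes from 1 array against 1 array and lies under 2-fold, and the difference between them (0.47) was not tested.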

How the results depend on the processing

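Among the differences of the 9 genes, no call at 2-fold changed sign under any of the 8 alternatives. Differences near 0 that were not called did turn sign in some: Thbd and F13a1 in DEREG ischemia against WT ischemia and Plat in DEREG sham against WT sham. Calls kept were 20 of 29 with normexp, 29 of 30 with quantile normalization, 27 of 30 with the median as scaling point, 19 of 19 with genes measured on both arrays only, 27 of 28 with the median over probes, and 30 of 30 with no filter, with the other probes behind the percentile and with the series table. Of 9 genes, those higher in DEREG ischemia than in WT ischemia numbered 1, against 2 with the median as scaling point, 2 with quantile normalization and 3 with no filter. Those higher in brain Treg than in spleen Treg numbered 5, against 2 measured on both arrays. Those higher in brain nonTreg than in spleen nonTreg numbered 4, against 2 with normexp, 2 with the median over probes and 1 measured on both arrays. In brain Treg against brain nonTreg, normexp left 1 of 2 higher and 0 of 1 lower, and genes measured on both arrays 0 lower. In spleen Treg against spleen nonTreg, 0 of 1 stayed higher with normexp, with the median over probes and with both arrays measured, while 0 with normexp and 2 with no filter were lower, against 1. Past 2-fold in the difference of differences were 3 with no filter against 0 in tissue, and in T cells 3 with no filter and 0 with normexp against 1.

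Counts over all genes moved by over 1.5 times with normexp, with no filter and, for some, with genes measured on both arrays only. DEREG ischemia against WT ischemia gave 398 higher and 905 lower, against 167 and 409 with normexp and 784 and 1396 with no filter. DEREG sham against WT sham gave 96 and 73, against 11 and 2 with normexp, 542 and 392 with no filter and 44 and 18 measured on both arrays. Brain Treg against spleen Treg gave 2372 and 1619, against 1253 and 914 with normexp, with 2552 lower under no filter and 1450 higher measured on both arrays. Brain nonTreg against spleen nonTreg gave 2389 and 1618, against 1228 and 891 with normexp, with 2589 lower under no filter and 1447 higher measured on both arrays. Brain Treg against brain nonTreg gave 637 and 394, against 174 and 103 with normexp and 1271 and 997 with no filter, with 257 lower measured on both arrays. Spleen Treg against spleen nonTreg gave 675 and 406, against 252 and 133 with normexp and 1309 and 1152 with no filter, with 227 lower measured on both arrays.

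By its construction normexp adds an offset to each spot, which shrinks differences of dim probes, and no filter counts unbounded values of dim probes. The cause of the other changes was not tested. The median as scaling point moved the median of all genes measured on both arrays by -0.16 (log2) in WT ischemia against WT sham. Signal over background limits Fga on all arrays, Fgg on all but DEREG ischemia, and Fgb on all but DEREG ischemia and WT ischemia. It also limits Plat, F3, Plau and Thbd in spleen, F13a1 in spleen nonTreg and Plat in brain Treg. No paired analysis was possible because each group has 1 array.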

Other observations

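The transthyretin gene Ttr differed by 8.15 (log2) in WT ischemia against WT sham and by 0.53 in DEREG ischemia against DEREG sham, and other choroid plexus genes went with it. Folr1, a folate receptor of that epithelium, stood at 0.398 in DEREG ischemia and 3.72 in WT ischemia, against 0.109 in DEREG sham and 0.0578 in WT sham. These genes were looked at after the data had been seen.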
